A study of Penicillium oxalicum with 12 samples.

Results

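Penicillium oxalicum is a filamentous fungus that secretes enzymes able to break down plant cell walls. The 4 genes described here encode its main secreted cellobiohydrolases, Cel7A-2 (PDE_07945) and Cel6A (PDE_07124), and its main secreted endoglucanases, Cel7B (PDE_07929) and Cel5B (PDE_09226). They were taken by locus tag, as 4 of the 9979 genes in the deposited expression table, and the names were assigned with that choice, since the table itself lists tags only. All 4 are among the 9125 genes tested, those that reached 1 FPKM in 3 or more libraries. FPKM is the read number of a gene scaled to its length and to a library total.

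Poly(A) RNA was sequenced from bulk mycelium of 4 strains in 3 biological replicates each, 12 libraries in all. WT is the wild-type strain 114-2 and served as the control. The engineered strains were gCXC, with a chimeric transcription factor called CXC, gXlnRC, with an XlnR carrying the substitution A871V, and gAraRC, with an AraR carrying A731V. Every culture, WT included, was grown for 24 h on 2% glucose and then kept for 4 h in medium with no carbon source at 30 °C and 200 rpm. The parts joined in CXC, the promoters that drive the engineered factors, the state of the native genes and the number of transformants behind each strain were not known here. The expression of the engineered factors was not tested, because the table does not pair their names with tags.

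Cellulose is taken apart by these enzymes acting together. Endoglucanases cut inside the cellulose chain and open new chain ends, and cellobiohydrolases move along the chain from an end and release the disaccharide cellobiose. Cel7 cellobiohydrolases start from the reducing end and Cel6 cellobiohydrolases from the non-reducing end, so the enzymes complement each other. In filamentous fungi, transcription of cellulase genes is repressed by glucose and induced by cellulose or its breakdown products. XlnR is known from Aspergillus as an activator of xylanase and cellulase genes, and AraR as an activator of genes for the use of L-arabinose.

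Read numbers could be recovered from the FPKM values, which are whole multiples of what 1 read is worth. Library totals ran from 14549534 to 20092360 reads counted in genes. The recovered gene lengths were 1641 nt for Cel7A-2, 1395 nt for Cel6A, 1425 nt for Cel7B and 1242 nt for Cel5B. Even at its lowest, each of the 4 genes had at least 171 reads in a library. Summed FPKM ran from 1008582.1 to 1136646.9, with gAraRC at the low end and WT at the high end, and values under other scalings are therefore given where they change a call. In bulk mycelium, fewer expressing cells and less RNA per cell cannot be told apart.

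Cel7A-2, the cellobiohydrolase with the highest transcript level of the 4 genes in each strain, was higher in all 3 engineered strains than in WT. Its FPKM was 67.3, 68.5 and 80.9 in the WT libraries, 12753, 12263 and 12334 in gCXC, 797, 832 and 851 in gXlnRC, and 99.5, 117 and 137 in gAraRC. No library of a strain overlapped with a library of another strain. Such separation was common, holding for 59.8% (gCXC against WT) to 77.6% (gCXC against gAraRC) of tested genes between 2 strains. The Cel7A-2 mean rose from 72.2 ± 7.51 FPKM in WT to 12450.1 ± 265 in gCXC, 827 ± 27.5 in gXlnRC and 118 ± 18.7 in gAraRC (SD, n = 3 libraries each). These means are 172-fold, 11.4-fold and 1.63-fold the WT mean. The log2 change against WT was 7.41 ± 0.10 in gCXC (SE, limma on log2(FPKM + 1), Benjamini-Hochberg adjusted p = 9.44e-14). It was 3.50 ± 0.10 in gXlnRC (limma, adjusted p = 4.72e-11) and 0.69 ± 0.10 in gAraRC (limma, adjusted p = 4.49e-05). In gAraRC, 37.1% of tested genes had a larger change in either direction, and the log2 change of Cel7A-2 was 1.04 with median-of-ratios scaling. In WT, between 2107 and 2401 was its place when all 9979 genes were ordered by FPKM, and in gCXC it stood at place 8 or 9, with 2.04% ± 0.0437 of all reads counted in genes.

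Cel6A, the cellobiohydrolase that works from the other chain end, rose steeply in gCXC and slightly in gXlnRC. Its FPKM was 11.9, 11.2 and 11.6 in WT, 9243, 8639 and 8486 in gCXC, 15.5, 16.5 and 17.5 in gXlnRC, and 8.28, 9.26 and 10.99 in gAraRC. The gCXC libraries stood far above all others, the gXlnRC libraries lay just above WT, and the gAraRC libraries just below it, again without overlap. Its mean in gCXC was 758-fold that in WT, against 1.43-fold in gXlnRC and 0.821-fold in gAraRC. On the log2(FPKM + 1) scale, the change of 9.45 ± 0.08 in gCXC was the largest rise of all 9125 tested genes (limma, adjusted p = 1.54e-15). That place depends on the added 1, which holds down rises from near 0 FPKM. The tag PDE_02681 went from a mean of 0.46 FPKM in WT to 707 in gCXC, a log2 change of 8.93 on that scale. In gXlnRC the log2 change of Cel6A was 0.48 ± 0.08 (limma, adjusted p = 4.12e-04), where 29.0% of tested genes had a larger change in either direction. In gAraRC it fell by 0.27 ± 0.08 on the log2 scale as deposited (limma, adjusted p = 0.0105). That fall depends on the scaling of the libraries: the log2 change was 0.056 with median-of-ratios scaling (adjusted p = 0.582) and 0.077 with quantile normalization (adjusted p = 0.44). It was -0.13 after rescaling to TPM (adjusted p = 0.192), and it kept its size but missed the threshold when only the WT and gAraRC libraries were fitted (limma, adjusted p = 0.0552). Ordered by FPKM, Cel6A was at places 6261 to 6486 in WT and 5985 to 6531 in gAraRC, ranges that overlap.

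Cel7B, an endoglucanase of the same enzyme family as Cel7A-2, rose in gCXC and gXlnRC and fell in gAraRC. Its FPKM was 16.9, 16.4 and 20.5 in WT, 680.3, 620 and 678 in gCXC, 182, 204 and 191 in gXlnRC, and 9.86, 9.74 and 13.5 in gAraRC. The 4 strains formed 4 separate ranges, with gCXC on top, then gXlnRC, WT and gAraRC. The mean in gCXC was 36.8-fold and that in gXlnRC 10.7-fold the WT mean, and WT was 1.63-fold above gAraRC. Log2 changes against WT were 5.13 ± 0.11 in gCXC (limma, adjusted p = 6.20e-12) and 3.36 ± 0.11 in gXlnRC (limma, adjusted p = 2.33e-10). In gAraRC, Cel7B fell by 0.66 ± 0.11 on the log2 scale (limma, adjusted p = 1.74e-04), and by 0.33 with median-of-ratios scaling.

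Cel5B, the other endoglucanase, rose in gCXC and did not pass the test in the other strains as deposited. Its FPKM was 16.3, 13.1 and 16.8 in WT, 1037, 979 and 994 in gCXC, 14.1, 13.6 and 12.0 in gXlnRC, and 15.01, 14.2 and 16.5 in gAraRC. The WT, gXlnRC and gAraRC libraries all lay between 12.0 and 16.8 FPKM, and the gCXC libraries stood apart. Its mean in gCXC was 65.2-fold the WT mean, a log2 change of 5.95 ± 0.09 (limma, adjusted p = 2.60e-13). In gXlnRC the log2 change was -0.20 with a 95% interval of -0.40 to 0.0034 (limma, adjusted p = 0.0882). Without WT replicate 2, the lowest WT library for this gene, it was -0.30 and passed the test (limma, adjusted p = 0.00956). In gAraRC the log2 change was -0.0063, with a 95% interval of -0.21 to 0.19 (limma, adjusted p = 0.954). With median-of-ratios scaling it was 0.33 (adjusted p = 0.00886) and with quantile normalization 0.35 (adjusted p = 0.00635). The call in gAraRC thus depends on the scaling.

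**Figure D1:**
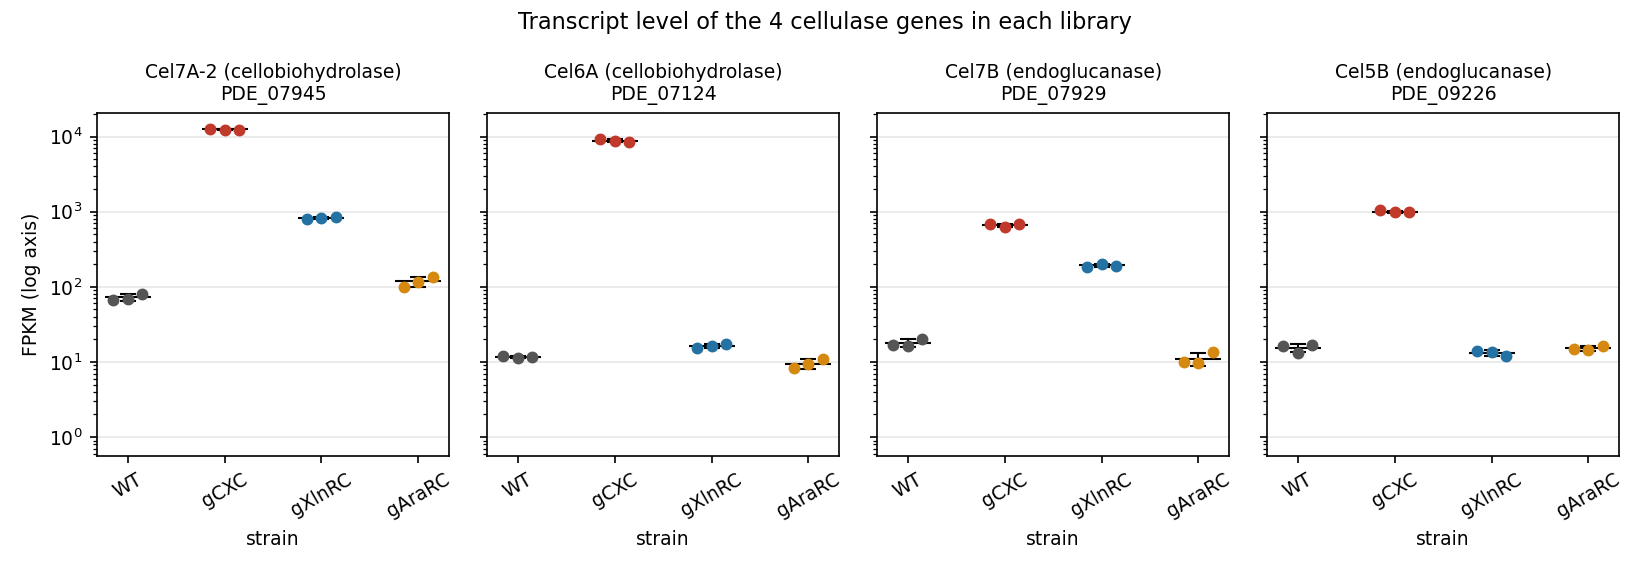
FPKM (log axis) of Cel7A-2, Cel6A, Cel7B and Cel5B in each of the 12 libraries; points are libraries, horizontal bars are means and error bars are SD over 3 libraries. All 4 genes are highest in gCXC, Cel7A-2 and Cel7B are also raised in gXlnRC, and Cel5B lies between 12.0 and 16.8 FPKM in every library outside gCXC.

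Read as a group, the genes behaved differently in each strain. In gCXC, 4 of 4 rose, where 23.8% of tested genes were called higher, 26.5% lower and 50.3% in either direction. Their libraries overlapped with WT for none of the 4, as was so for 59.8% of tested genes. Their median log2 change was 6.68, against -0.0026 over all tested genes. On the log2(FPKM + 1) scale they took places 1, 4, 6 and 10 among the rises of the 9125 tested genes. In gXlnRC, 3 of 4 rose and Cel5B did not pass, where 19.1% of tested genes were called higher, 35.5% lower and 54.6% in either direction. The libraries of 3 of 4 did not overlap with WT, against 62% of tested genes. The median log2 change of the 4 was 1.92, against -0.10 over all tested genes. On the same scale, Cel7A-2 and Cel7B took places 50 and 52 among the rises there, and Cel6A place 895. In gAraRC, 1 of 4 rose and 2 of 4 fell, where 19.1% of tested genes were called higher, 57% lower and 76.1% in either direction. The libraries of 3 of 4 did not overlap with WT, against 75.7% of tested genes. The median log2 change of the 4 was -0.14 there, against -0.34 over all tested genes, so the counts in gAraRC are near what the whole table shows. As deposited, 1746 tested genes were called higher and 3237 lower in gXlnRC, and 1744 and 5200 in gAraRC. With median-of-ratios scaling these became 2566 and 2401 in gXlnRC and 3109 and 3255 in gAraRC, and the medians became 0.0046 and -0.0099. Relative to the deposited median of gAraRC, the log2 change was 1.03 for Cel7A-2, 0.068 for Cel6A, -0.33 for Cel7B and 0.33 for Cel5B. All 3 strains were compared with the same WT libraries.

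**Figure D2:**
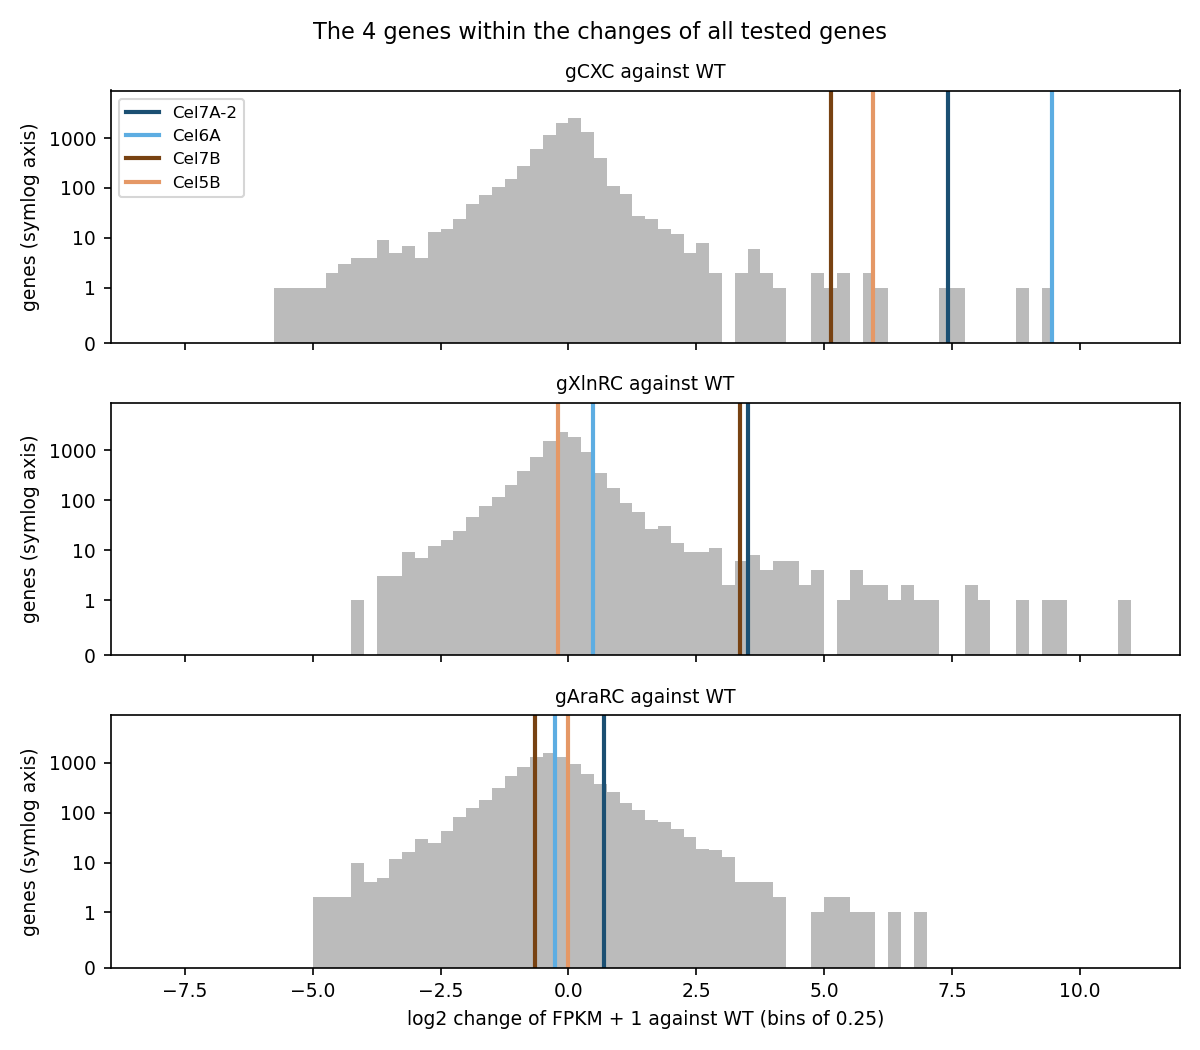
Number of tested genes (symmetric log axis) by log2 change of FPKM + 1 against WT in bins of 0.25, 1 panel per engineered strain; coloured lines mark the 4 cellulase genes. In gCXC the lines lie at 5.13 to 9.45, in the sparse right tail, whereas in gAraRC they lie at -0.66 to 0.69, within the bulk of the genes.

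Direct comparison of the engineered strains gave the order of the levels. In gCXC against gXlnRC, 4 of 4 genes were higher in gCXC, where 36.1% of tested genes were called higher, 22.5% lower and 58.6% in either direction. The libraries did not overlap for 4 of 4, against 67.8% of tested genes. Of all calls, 61.6% were higher in gCXC as deposited and 50.4% with median-of-ratios scaling. The log2 difference was 3.91 ± 0.10 for Cel7A-2, 8.97 ± 0.08 for Cel6A, 1.77 ± 0.11 for Cel7B and 6.14 ± 0.09 for Cel5B (SE, limma, highest of the 4 adjusted p = 9.71e-08). The level of Cel7B was thus 3.43-fold higher in gCXC than in gXlnRC, and that of Cel6A 532-fold. In gCXC against gAraRC, 4 of 4 were higher in gCXC, where 53.2% of tested genes were called higher, 22% lower and 75.2% in either direction. The libraries did not overlap for 4 of 4, against 77.6% of tested genes. Of the calls in that comparison, 70.8% were higher in gCXC as deposited and 49.1% with median-of-ratios scaling. Log2 differences were 6.72 ± 0.10 for Cel7A-2, 9.72 ± 0.08 for Cel6A, 5.79 ± 0.11 for Cel7B and 5.95 ± 0.09 for Cel5B (SE, limma, highest adjusted p = 1.57e-12). In gXlnRC against gAraRC, 3 of 4 were higher in gXlnRC, where 49.1% of tested genes were called higher, 23.5% lower and 72.5% in either direction. The libraries did not overlap for 4 of 4, against 74.9% of tested genes. Of those calls, 67.6% were higher in gXlnRC as deposited and 49.7% with median-of-ratios scaling. Cel7B differed most, by 4.02 ± 0.11 (limma, adjusted p = 3.22e-11), followed by Cel7A-2 with 2.81 ± 0.10 (adjusted p = 2.39e-10) and Cel6A with 0.74 ± 0.08 (adjusted p = 5.24e-06). Cel5B was at -0.19, with a 95% interval of -0.39 to 0.0097 (limma, adjusted p = 0.0802). That difference passed the test with TPM (-0.24, adjusted p = 0.0273), median-of-ratios scaling (-0.42, adjusted p = 0.0019) and quantile normalization (-0.52, adjusted p = 4.20e-04), and also when WT replicate 2 was left out of the limma fit (-0.19, adjusted p = 0.0333).

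As deposited, the order of levels from high to low was gCXC, gXlnRC, gAraRC and WT for Cel7A-2, with every neighbouring pair apart by the test. For Cel6A and Cel7B the order was gCXC, gXlnRC, WT and gAraRC, with every neighbouring pair apart by the test, except that WT and gAraRC did not differ for Cel6A beyond the threshold under the scalings named above. For Cel5B, gCXC stood above WT, gAraRC and gXlnRC, and no neighbouring pair among those 3 passed the test as deposited.

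**Figure D3:**
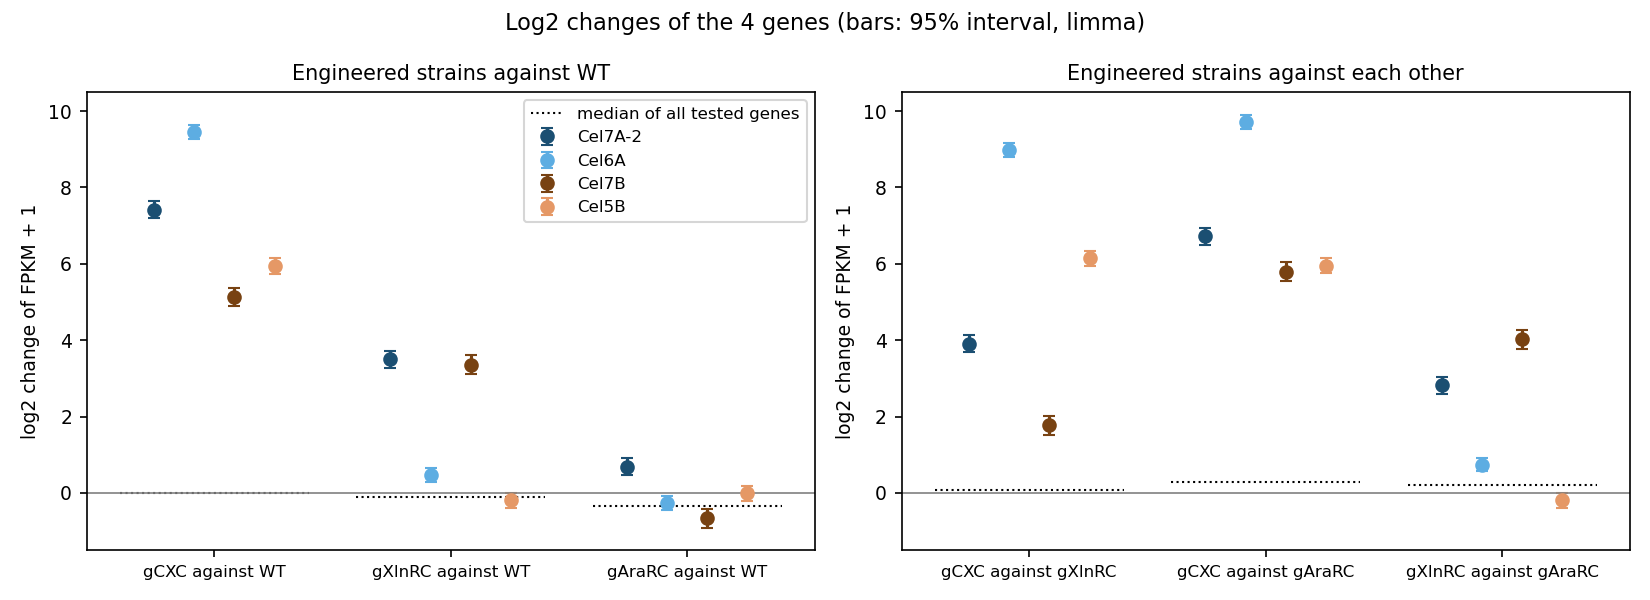
Log2 changes of FPKM + 1 for the 4 genes, each engineered strain against WT (left) and the engineered strains against each other (right); points are limma estimates, bars 95% intervals and dotted lines the median of all tested genes. In gCXC all points lie between 5.13 and 9.45, in gXlnRC Cel7A-2 and Cel7B lie above 3 and Cel6A and Cel5B below 0.5.

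The mixture of the 4 transcripts differed between strains. Shares below refer to the summed FPKM of the 4 genes in a library, which corrects for gene length. In WT, Cel7A-2 made up 61.6% ± 1.55, Cel7B 15.3% ± 0.446, Cel5B 13.1% ± 1.26 and Cel6A 9.95% ± 0.874 of the sum (SD, n = 3). Cel6A was the rarest of the 4 in WT and the second most abundant in gCXC, where Cel7A-2 took 54.4% ± 0.541, Cel6A 38.4% ± 0.625, Cel5B 4.38% ± 0.0344 and Cel7B 2.88% ± 0.132. In gXlnRC the sum consisted mostly of the Cel7 genes, with Cel7A-2 at 78.8% ± 0.719 and Cel7B at 18.3% ± 0.712, while Cel6A stood at 1.57% ± 0.0527 and Cel5B at 1.27% ± 0.142. In gAraRC Cel7A-2 took 76.6% ± 1.45, Cel5B 10.03% ± 1.12, Cel7B 7.17% ± 0.597 and Cel6A 6.20% ± 0.0372.

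Cellobiohydrolase transcripts as a class made up 70.5%, 73.0% and 71.3% of the sum in the WT libraries and 92.8%, 92.9% and 92.6% in gCXC. They took 80.6%, 79.6% and 81.1% in gXlnRC and 81.3%, 84.0% and 83.1% in gAraRC. Every engineered library lay above every WT library, and the 4 groups did not overlap. In no engineered strain did the shares of Cel7A-2 and Cel6A both rise. The mean share of Cel6A fell from 9.95% in WT to 1.57% in gXlnRC and 6.20% in gAraRC, where that of Cel7A-2 rose. In gCXC the share of Cel6A rose to 38.4%, while that of Cel7A-2 fell from 61.6% in WT to 54.4%. The 4 groups differed in this share (exact permutation test over all 369600 assignments of the 12 libraries to groups, p = 6.49e-05, the smallest p it can give). A pairwise exact test of 3 against 3 libraries cannot go below p = 0.1, the value it gave for each strain against WT. The 4 genes together held 0.0179% ± 0.00171 of the reads counted in genes in WT and 3.49% ± 0.104 in gCXC. They held 0.167% ± 0.0056 in gXlnRC and 0.0241% ± 0.00363 in gAraRC.

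**Figure D4:**
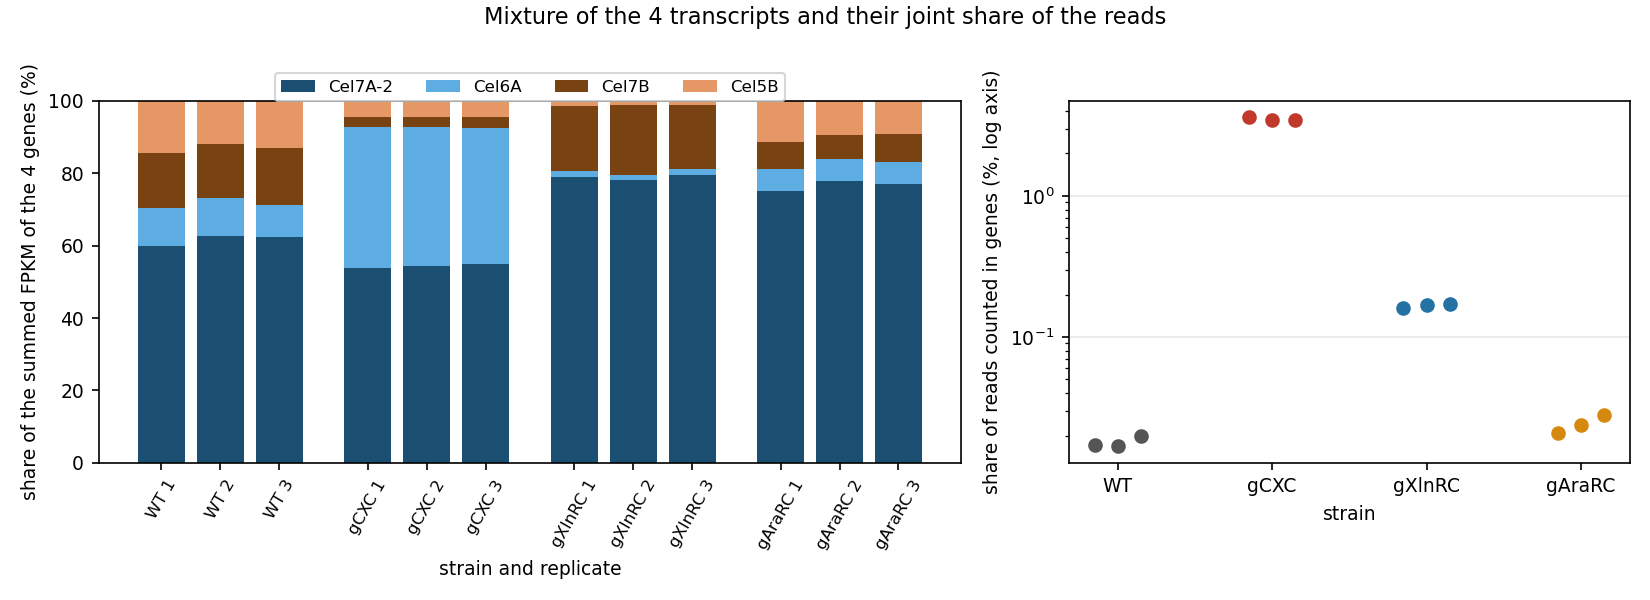
Left, share of each gene in the summed FPKM of the 4 genes, 1 bar per library; right, joint share of the 4 genes in the reads counted in genes (log axis), 1 point per library. Cel6A widens from 9.95% of the bar in WT to 38.4% in gCXC, and in gXlnRC the Cel7 genes fill nearly the whole bar.

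Ratios of FPKM within a library are not altered by a single scaling factor for that library, though quantile normalization can alter them. The Cel7A-2 to Cel6A ratio of FPKM was 6.24 ± 0.667 in WT, 1.42 ± 0.0369 in gCXC, 50.1 ± 1.40 in gXlnRC and 12.4 ± 0.306 in gAraRC (SD, n = 3). Cel7A-2 and Cel6A were thus closest to equal transcript levels in gCXC and furthest apart in gXlnRC. Other cellobiohydrolase genes were not counted. For the endoglucanases, the Cel7B to Cel5B ratio was 1.17 ± 0.115 in WT, 0.657 ± 0.0248 in gCXC, 14.6 ± 1.58 in gXlnRC and 0.720 ± 0.0859 in gAraRC. The gCXC and gAraRC libraries overlapped for this ratio, and gXlnRC stood apart. The Cel7A-2 to Cel7B ratio moved least in gXlnRC, with 4.31 ± 0.202 against 4.04 ± 0.129 in WT and overlapping libraries, while it was 18.9 ± 0.817 in gCXC and 10.7 ± 1.09 in gAraRC. Each of the 6 pairs of genes differed in its log2 ratio of FPKM + 1 across the 4 groups (exact permutation test, adjusted p over 6 pairs between 7.79e-05 and 0.00013). The added 1 lets library scaling alter these tested ratios, but no call changed without it. The test covers the 4 groups together and does not tell which strains differ.

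The spread between replicates was small against the rises in gCXC, but not against the small changes of Cel6A in gAraRC and Cel5B in gXlnRC. In gCXC the coefficient of variation over 3 libraries was 2.13% for Cel7A-2, 4.55% for Cel6A, 5.24% for Cel7B and 3.05% for Cel5B, where read counting alone gives 0.171% to 0.797%. In WT it was 10.4%, 2.89%, 12.5% and 13.0%, against 2.25%, 6.08%, 4.84% and 5.60% from counting. The spread of Cel6A in WT was therefore no larger than counting noise. The gAraRC libraries varied most for Cel7A-2, Cel6A and Cel7B, with 15.9%, 14.4% and 19.4%, and replicate 3 was the highest gAraRC library for all 4 genes.

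Which of the 4 genes were most alike across the 12 libraries depended on the measure. By Pearson correlation of log2(FPKM + 1), Cel6A and Cel5B were most alike at 0.995 and Cel7B and Cel5B least alike at 0.749. By Spearman rank correlation, Cel6A and Cel7B were most alike at 0.972, and Cel6A and Cel5B least alike at 0.371. Libraries of a strain share their strain, so these values describe 4 group levels more than 12 separate points. Of 7141 other tested genes with a mean of at least 10 FPKM in a strain, those closest to Cel7A-2 by Pearson correlation were PDE_07944 (0.991) and PDE_09019 (0.988). PDE_07944 is the adjacent locus tag, with a mean of 26.3 FPKM in WT, 81.0 in gCXC, 43.9 in gXlnRC and 29.3 in gAraRC. Closest to Cel7B were PDE_04894 (0.996) and PDE_04849 (0.994). PDE_04894 had 12.4 FPKM in WT, 558 in gCXC, 191 in gXlnRC and 6.11 in gAraRC, close to the levels of Cel7B itself, whereas PDE_04849 moved only between 36.3 and 54.1 FPKM. Closest to Cel6A were PDE_02681 (0.997) and Cel5B, and closest to Cel5B were PDE_02680 (0.998) and PDE_02681 (0.997). In ranks, PDE_02681 correlated with Cel6A at 0.704 and with Cel5B at 0.465, and PDE_02680 with Cel5B at 0.853. PDE_02680 and PDE_02681 are consecutive tags, with means of 97.0 and 707 FPKM in gCXC and below 1 FPKM in each other strain. They passed the filters through gCXC alone, so their Pearson correlations with Cel6A and Cel5B are largely set by that strain. The files give no function for these tags.

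Locus tags next to the 4 genes changed in both directions. Neighbours were taken by tag number, 5 on each side, since coordinates were not used here, and 35 of the 40 neighbours passed the filter. In gCXC, 12 of the 35 were called higher and 9 lower (60% called, against 50.3% of all tested genes). Their median log2 change was 0.17, against -0.0026 over all tested genes, of which 23.8% were called higher and 26.5% lower. In gXlnRC 12 were higher and 14 lower (74.3% called, against 54.6%), with a median of 0.12 against -0.10 over all tested genes. In gAraRC 10 were higher and 18 lower (80% called, against 76.1%), with a median of -0.33 against -0.34. Over all tested genes, 19.1% were called higher and 35.5% lower in gXlnRC, and 19.1% and 57% in gAraRC. With 3 tags on each side, 23 neighbours passed the filter. Of these, 11 were higher and 5 lower in gCXC, 9 and 7 in gXlnRC, and 8 and 10 in gAraRC. The neighbour with the largest change in gCXC was PDE_07928, the tag before Cel7B, with 38.6, 40.2 and 57.8 FPKM in WT and 536, 492 and 535 in gCXC. It rose by 3.51 ± 0.16 there and by 2.32 ± 0.16 in gXlnRC, and fell by 1.11 ± 0.16 in gAraRC on the log2 scale (SE, limma, adjusted p = 5.05e-09, 1.32e-07 and 3.39e-05), which are the directions of Cel7B. The tag before that, PDE_07927, fell by 2.59 ± 0.11 in gCXC (limma, adjusted p = 3.45e-09) and had the largest neighbour change in gAraRC. It stood at 540, 571 and 588 FPKM in WT and at 43.1, 53.6 and 63.3 in gAraRC, and fell by 3.40 ± 0.11 (limma, adjusted p = 1.38e-10). In gXlnRC the largest neighbour change was that of PDE_09225, the tag before Cel5B, with 15.4, 14.7 and 195 FPKM in WT and 288, 222 and 288 in gXlnRC. WT replicate 3 stood far above the other WT libraries for this gene. The log2 change was 2.84 ± 0.71 with it (limma, adjusted p = 0.00481) and 4.05 ± 0.15 without it (adjusted p = 1.79e-09). Cel5B itself did not pass the test in gXlnRC. Whether reads of overlapping neighbours were shared was not tested, as the strand setting of the counting was not known here.

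**Figure D5:**
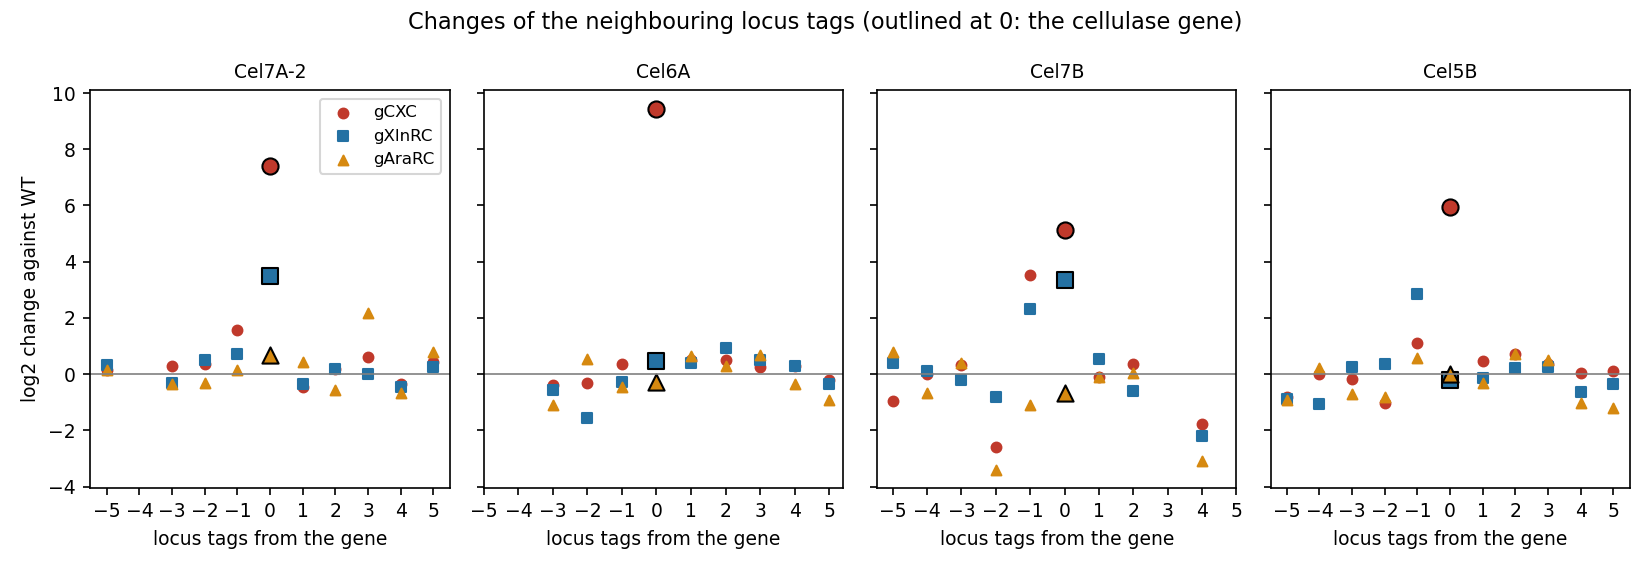
Log2 change of FPKM + 1 against WT for the tested locus tags within 5 tag numbers of each cellulase gene (outlined symbols at 0); colours and symbols are strains. In gCXC, Cel6A at 9.45, Cel7A-2 at 7.41 and Cel5B at 5.95 each stand far above their neighbours. The tag before Cel7B moves in the same directions as Cel7B.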

How the data were processed

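The authors deposited 1 table of FPKM values with 9979 genes and a column per library. Per the submitters' processing notes, the tools were HISAT2 2.0.0, DESeq2, featureCounts 1.5.0-p1 and CASAVA 1.8, with roles not stated. The labels' protocols name an mRNA capture kit and a stranded library kit. For the genome build, annotation, strand setting and FPKM denominator, the sources used here give nothing. None of the locus tags matched the reference gene table (0 matches), so tags other than the 4 members carry no name.

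The 4 genes and the lists were chosen with earlier results of these data known. The 12 libraries entered a single model in limma 3.58.1 (R 4.3.3), on log2(FPKM + 1), with a mean per strain and a trended prior variance. It covered the 9125 genes that reached 1 FPKM in 3 or more libraries. Tests were two-sided, adjusted by Benjamini-Hochberg over all tested genes within each of 6 comparisons, and called at an adjusted p below 0.05. The limma p-values rest on the spread between the 3 libraries within strains, described by the series as biological triplicates. For each gene, that spread was pooled over all 4 strains and drawn towards the trended prior variance. It is thus not the spread of the compared strains alone, and libraries of an uncompared strain can move a p-value. Fold changes on this scale understate changes of low genes. Ratios and shares were tested with exact permutation tests.

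Whole reads were recovered for 9884 genes by searching lengths in steps of 3 nt for those that turn all values of a gene into near-whole numbers. The 4 genes came within 0.00174 reads of whole numbers. In a finer search of 5701 lengths, every other length that gave whole reads for them was a multiple of the recovered length. The recovery and the limma fit were tested on simulated data. In the simulated gCXC and WT libraries, the fit called 8% of 1.25-fold and 60% of 1.5-fold changes. It called 98% of 2-fold and 100% of 4-fold changes, with 50 changed genes of each size. Most 1.25-fold changes were thus missed there. Of the unchanged genes in the simulation, 6 were called. Every simulated gene had the same spread beyond counting noise, and no general shift between strains was put in. The percentages need not hold for the real libraries.

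Other genes named are the 2 with the highest Pearson correlation to each of the 4 and, among the neighbouring tags, the largest change in each strain. Alternatives were other pseudocounts, filters and scalings, fits of 2 groups, no trend, a replicate block and each library left out. limma voom on recovered reads was added after the data were seen. Analyses used Python 3.11.15, numpy 2.4.6, pandas 2.3.3 and matplotlib 3.10.9.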

Additional observations from a re-analysis of the deposited data

How the results depend on the processing

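Of 552 values of the 24 log2 changes of the 4 genes under alternatives, 535 kept both their direction and their side of the threshold. The estimate itself cannot move with other filters, a 2-group fit, no trend, the replicate block or a left-out library of an uncompared strain. Under those alternatives only the side of the threshold could change. All 8 changes of Cel7A-2, Cel6A, Cel7B and Cel5B in gCXC against gXlnRC and gAraRC, and the 4 against WT, kept direction and side throughout. The exceptions concern Cel6A and Cel5B at small changes. Against WT in gAraRC, Cel6A went to -0.13 with TPM, to 0.056 with median-of-ratios scaling and to 0.077 with quantile normalization, and stayed at -0.27 but missed the threshold with only the 2 groups fitted. Cel5B, at -0.0063 as deposited, went there to 0.33 and 0.35 under the last 2 scalings, and without a call to 0.14 with TPM and 0.012 with limma voom on recovered reads. In gXlnRC against gAraRC, Cel5B passed at -0.24 with TPM, -0.42 with median-of-ratios scaling and -0.52 with quantile normalization. Leaving out 1 library at a time, Cel5B ran from -0.11 to 0.057 in gAraRC against WT, from -0.30 to -0.13 in gXlnRC against WT and from -0.24 to -0.12 in gXlnRC against gAraRC. By construction, median-of-ratios scaling and quantile normalization bring the library medians close together, which raises gAraRC values relative to WT, while TPM equalizes library sums.

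Counts of called genes stayed within 1.5 times except by direction. With median-of-ratios scaling there were 3109 higher and 3255 lower in gAraRC against WT, 3166 and 3284 in gCXC against gAraRC, and 3239 lower in gXlnRC against gAraRC. Quantile normalization gave 3035 higher and 3355 lower in gAraRC against WT and 3219 lower in gXlnRC against gAraRC. Without a pseudocount, the log2 ratio of Cel7A-2 to Cel6A was 5.65 in gXlnRC and 3.63 in gAraRC, and that of Cel7A-2 to Cel7B 2.01 in WT, beyond 1 SD of the values with it (5.56, 3.49 and 1.95). All 78 pair tests kept their call. Likeness by rank correlation moved by over 0.1 for 5 of the named pairs, to between 0.371 and 0.860.

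Replicate numbers were not taken to pair the libraries, since the correlation of deviations exceeded 0.1 in only 3 of 18 same-numbered pairs. Pointing the other way, as a hint from the data, 8 of 12 libraries correlated best with their own number, and the median correlation was 0.036 for same-numbered and -0.018 for differently numbered pairs. With the replicate block, 4579 genes were called in gCXC against WT, 4913 in gXlnRC and 6920 in gAraRC, and none of the 24 calls of the 4 genes changed. The number of libraries limits the precision: the 95% interval of Cel5B in gAraRC against WT ran from -0.21 to 0.19.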
